A study of Mus musculus with 10 samples.

Results

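The regions described here are DNase I hypersensitive (DHS) sites of 800 bp or more in which no footprint was called, in 3T3-L1 cells at 4 h of adipogenic differentiation. They were selected on 2 values from the deposited lists, the width of a site (end minus start) and the absence of any overlap with a footprint. Of 129028 DHS sites, 25312 were at least 800 bp wide (19.6%), and 2123 of these held no footprint. They made up 8.39% of wide sites (95% Wilson interval 8.05 to 8.74%), against 54.6% without a footprint among sites of all widths. Both shares describe the choice of the regions and were not tested. Below, "empty" means without a called footprint and "wide" means 800 bp or more. A separate intersection of the lists with bedtools also returned 2123 sites.

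3T3-L1 is a mouse fibroblast line committed to the fat cell lineage. The cells were grown past confluence for 2 days and then given 1 µM dexamethasone (a glucocorticoid), 0.5 mM 3-isobutyl-1-methylxanthine (an inhibitor of phosphodiesterases, which break down cyclic AMP), 1 µg/mL insulin and 10% fetal calf serum. The DNase group has 2 samples, of which 1 is labelled paired-end, with fragments of about 100 to 150 bp. Both are further sequencing of 1 earlier library from this 1 line and time. Sites and footprints were called by the authors on all reads of that library together, so there are no replicates, no control condition and no p-values below. Intervals cover counting error only and treat sites as independent. For several comparisons of empty with footprinted wide sites, the number of chromosomes with the same order is given in place of a test. Other comparisons rest on the values or their counting intervals alone. The RNA-seq samples of the study, with a knockdown of C/EBPβ or a scrambled control, were not used here.

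DNase I cuts DNA that is free of nucleosomes, so promoters and enhancers in use appear as clusters of cuts. A protein bound within such a cluster shields its own few bases, which leaves a short dip in the cuts, the footprint. A footprint can be called only where the flanking DNA is cut often enough for a dip to stand out, and proteins that stay bound briefly can leave a shallow dip or none. A wide site without a footprint is thus a long stretch called accessible in which no dip passed the authors' threshold. The lists hold no cut counts, so few cuts and little protein occupancy cannot be told apart at any site described here.

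Empty sites became rarer as sites became wider, also within the wide class. Of sites of 800 to under 850 bp, 509 of 3323 were empty (15.3%, Wilson interval 14.1 to 16.6%). The share was 12.2% at 900 to under 1000 bp, 6.60% at 1100 to under 1200 bp and 2.21% at 1500 to under 2000 bp. At 2000 bp or more, 19 of 1679 sites were empty (1.13%, interval 0.726 to 1.76%). No step was seen at the limit of the rule. Among sites of 780 to under 800 bp, just outside it, 16.2% were empty, and among sites of 800 to under 820 bp, just inside it, 15.5%.

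**Figure D1:**
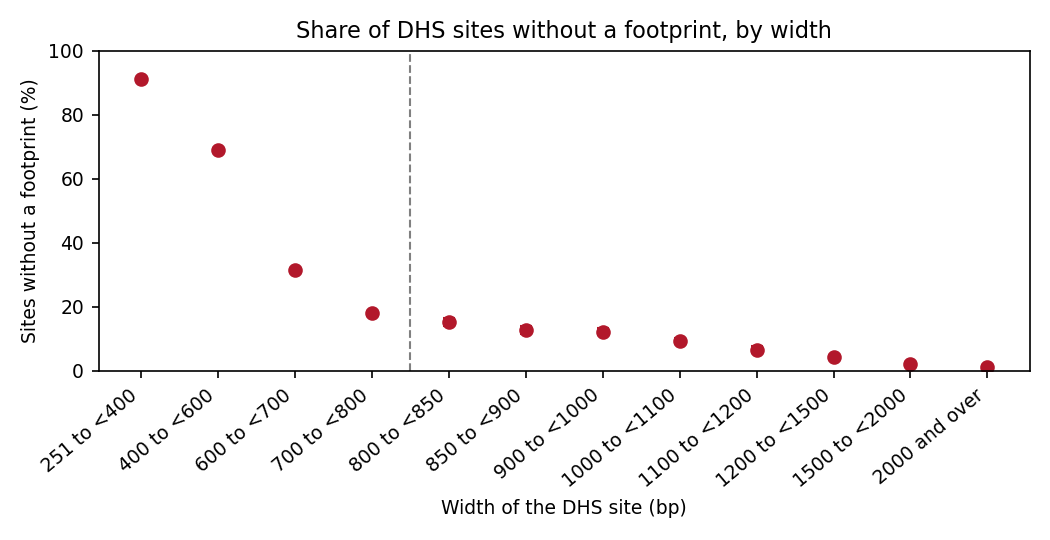
Share of DHS sites without a footprint (y axis, percent) in classes of site width (x axis, bp), with 95% Wilson intervals that are mostly smaller than the points. The share falls from 91.1% at 251 to under 400 bp to 1.13% at 2000 bp or more, and the dashed line marks the 800 bp limit of the rule.

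The wide empty sites were narrower than the wide footprinted ones. Their median width was 934 bp (interquartile range 853 to 1066.5 bp, n = 2123), against 1089 bp (914 to 1395 bp, n = 23189). Sites of 800 to under 1000 bp made up 65.0% of the empty and 38.7% of the footprinted wide sites. Only 86 wide empty sites (4.05%) reached 1500 bp, against 19.9% of footprinted ones. The median was lower in the empty class on 20 of 20 chromosomes. Together the wide empty sites covered 2135 kb. The 28999 kb of footprinted wide sites carried 7.84 footprints per kb, with a median of 8 footprints per site, and a median of 6 in those of 800 to under 1000 bp. Sites with 1 footprint, the nearest to the empty ones by the rule, numbered 1406 and had a median width of 953 bp.

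The widest empty sites were on chromosome X. A pair of sites of 4041 bp each lay there from 5436496 to 5440536 and from 5444924 to 5448964 (mm9 positions, 1-based). Next came a site on chromosome 3, from 62406250 to 62409296, of 3047 bp. Of the 10 widest, 3 were on chromosome X and 3 on chromosome 3, and the other 4 were on chromosomes 1, 4, 7 and 11. The site on chromosome 1, from 148343674 to 148346201, was 2528 bp wide, the one on chromosome 11, from 29722602 to 29724973, 2372 bp, and the one on chromosome 7, from 49303063 to 49305174, 2112 bp. In 8 of these 10 both flanking sites were empty too, and 8 were more than 100 kb from the nearest footprinted site. The chromosome 3 site of 3047 bp lay 505 bp from a footprinted site, and the chromosome 11 site 14.7 kb from one. The share of other sites within 500 kb that were footprinted ran from 0% around the X site of 2440 bp to 71.4% around the chromosome 11 site. It was 61.5% and 48.6% around the chromosome 3 sites of 2558 and 2594 bp. Gene positions at hand were on another build, so no gene is named at any of these positions.

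Chromosome X had the highest share of empty sites among its wide sites. There 166 of 807 wide sites were empty, 20.6% (Wilson interval 17.9 to 23.5%). On the 19 autosomes the mean was 8.01 ± 1.79% (SD, n = 19 chromosomes) and the range 3.94 to 11.0%, so the interval of X lay above every autosome. Chromosome 14 followed with 102 of 931 (11.0%) and chromosome 6 with 187 of 1805 (10.4%). The lowest shares were on chromosome 11, with 64 of 1624 (3.94%), and chromosome 19, with 39 of 826 (4.72%). X carried 7.82% of the wide empty sites and 3.19% of all wide sites. The excess of X over the pooled autosomes was 12.6 percentage points. Among sites of 800 to under 1000 bp, 31.2% were empty on X, against 12.9 ± 2.81% on the autosomes (SD, n = 19). X also led for sites of any width, with 71.3% empty against 39.9 to 62.9% on the autosomes.

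**Figure D2:**
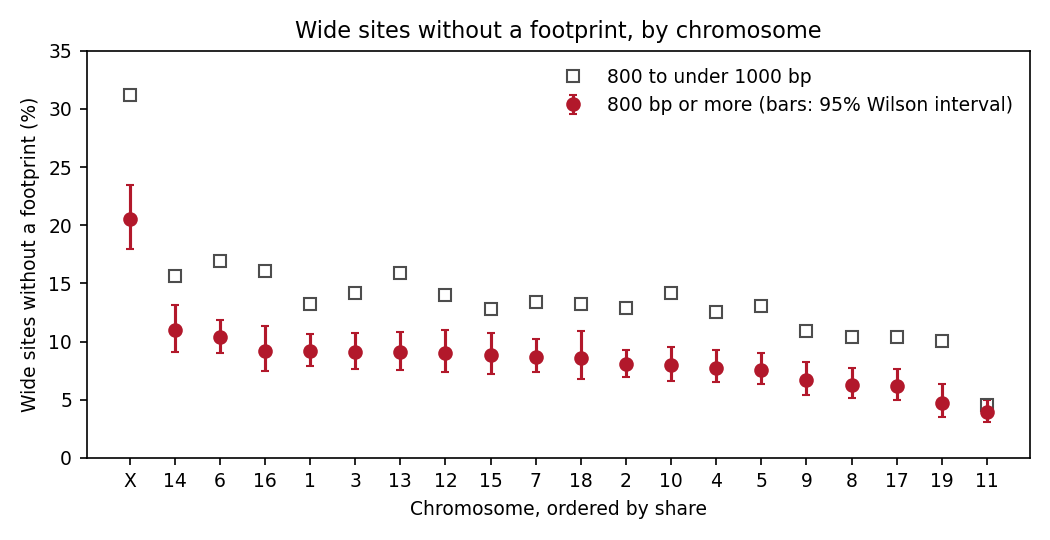
Share of wide DHS sites without a footprint (y axis, percent) on each of the 20 chromosomes, ordered by that share. Filled circles are sites of 800 bp or more with 95% Wilson intervals, and open squares are sites of 800 to under 1000 bp. Chromosome X, at 20.6%, stands above the autosomes, which run from 11.0% on chromosome 14 to 3.94% on chromosome 11.

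Wide empty sites lay farther from other footprinted sites than wide footprinted sites did. The median edge-to-edge distance to the nearest other footprinted site was 24.5 kb (95% interval of the median 21.6 to 28.3 kb, n = 2123) for the empty sites. For footprinted sites it was 5.36 kb (5.21 to 5.49 kb, n = 23189), a ratio of 4.58. The empty class had the larger median on 20 of 20 chromosomes, with ratios from 1.98 to 9.37. The medians of the empty sites ran from 8297 bp on chromosome 19 to 44830 bp on chromosome 8. Those of footprinted sites ran from 3776 to 10518 bp.

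In the median of this distance, sites with a lone footprint were close to the other footprinted sites. Wide sites with 1 footprint had a median distance of 5.99 kb, those with 2 to 4 footprints 5.47 kb, with 5 to 9 footprints 5.81 kb and with 10 or more 4.88 kb. The largest step between these classes was thus from 0 to 1 footprint. Against sites with 1 footprint alone, the ratio was 4.10. Restricted to sites of 800 to under 1000 bp, where both classes have nearly the same median width (876 and 884 bp), the medians were 26.2 and 5.57 kb and the ratio 4.70. Narrower empty sites were farther still, with a median of 45.8 kb (n = 68273). In the tail, 595 wide empty sites (28.0%) were more than 100 kb from any footprinted site and 98 (4.62%) more than 500 kb. For footprinted wide sites these shares were 1.60% and 0.103%, and for narrower empty sites 36.2% and 6.11%. The tail was graded with footprint number. Beyond 100 kb lay 5.41% of wide sites with 1 footprint, 2.84% with 2 to 4, 1.40% with 5 to 9 and 0.70% with 10 or more. At the other end, 277 wide empty sites (13.0%) lay within 1 kb of a footprinted site, against 21.8% of footprinted ones.

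**Figure D3:**
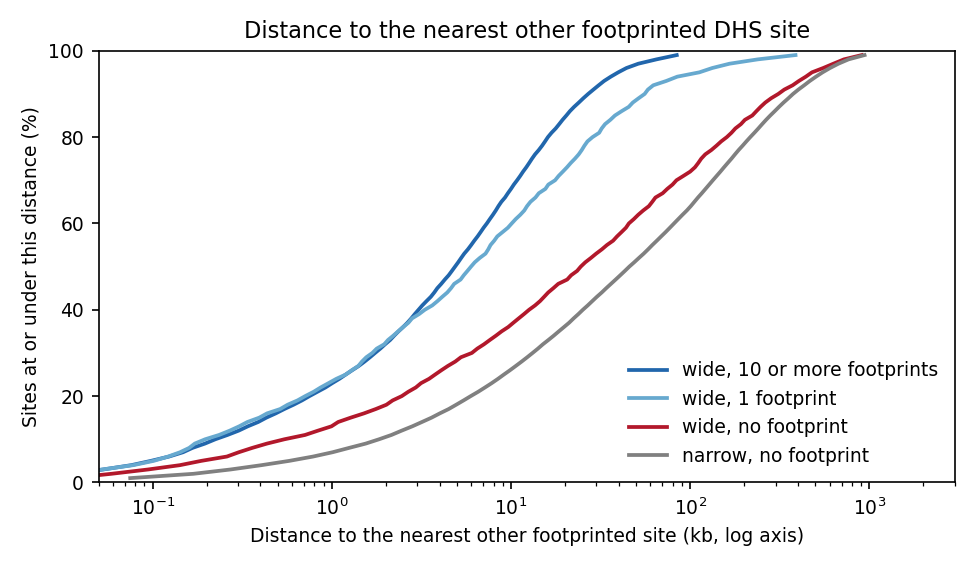
Cumulative share of sites (y axis, percent) by distance to the nearest other footprinted site (x axis, kb, log axis) for 4 classes of sites, drawn from the 1st to the 99th percentile. The curve of wide empty sites (median 24.5 kb) lies between that of narrow empty sites (45.8 kb) and those of wide sites with 1 (5.99 kb) or with 10 or more footprints (4.88 kb).

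The most distant of the wide empty sites lay on chromosome X. A site of 1271 bp from 117402941 to 117404211 was 2747 kb from the nearest footprinted site, and a site of 886 bp from 117426090 to 117426975 was 2724 kb away. Another X site of 2440 bp, from 118447682 to 118450121, was 1701 kb away. All 3 belonged to the same stretch of 110 consecutive empty sites. Chromosome 14 followed with 835 bp from 91726189 to 91727023, at 1427 kb, and chromosome 15 with 897 bp from 47041383 to 47042279, at 1336 kb. Within 500 kb of the 3 X sites there were only 14 to 24 other sites, against a median of 54 for wide empty sites. Their stretch had 18.9 sites per Mb, the fewest among stretches of 100 or more empty sites. Around the chromosome 14 and 15 sites there were 56 and 62 other sites. None of the sites around these 5 was footprinted.

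Other wide empty sites sat directly beside footprints. On chromosome 17 a site of 1104 bp, from 13588267 to 13589370, was 108 bp from a footprint in the next site, the shortest such distance. On chromosome 2 a site of 877 bp, from 25794182 to 25795058, was 136 bp from one, and on chromosome 4 a site of 1157 bp, from 145437127 to 145438283, 156 bp. Next came a second one on chromosome 2, from 176690586 to 176691390 (805 bp wide, at 174 bp), and 1 on chromosome 14, from 76908430 to 76909479 (1050 bp wide, at 177 bp). Within 500 kb of these 5, between 57.4 and 82.8% of other sites were footprinted. In all, 225 wide empty sites had a footprint outside them within 1 kb. No wide empty site would gain a footprint if its edges were moved outward by 100 bp.

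Wide empty sites were not isolated from other DHS sites. No other site of any width lay within 12.5 kb of 351 of them (16.5%, Wilson interval 15.0 to 18.2%), against 17.7% of footprinted wide sites (17.2 to 18.2%), intervals that overlap. The share was higher in the empty class on 7 of 20 chromosomes, and at 800 to under 1000 bp the order was the opposite (17.6 against 17.0%). Narrower empty sites were alone more often, in 25.1% of cases. The nearest site of any kind was 2.37 kb from a wide empty site in the median, against 3.18 kb for footprinted wide sites. Wide sites with 1 footprint were closer still to another site, at 1.76 kb, and 13.5% of them were alone. Around wide empty sites other sites were about as frequent as around footprinted wide ones, but fewer were footprinted. The median number of other sites within 500 kb was 54 for the empty and 56 for the footprinted class. The median share of these that were footprinted was 30.4% and 68.8%, and it was lower around empty sites on 20 of 20 chromosomes. It was 55.1% around wide sites with 1 footprint and 25.3% around narrower empty sites. The nearest footprinted site, at whatever distance, held a median of 2 footprints for an empty wide site and of 4 for a footprinted one. This median was also 2 for wide sites with 1 footprint and for narrower empty sites.

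Both flanking sites were empty for more than 50% of the wide empty sites. Of the 2122 wide empty sites with a site on both sides of them on the chromosome, 1184 had both flanking sites empty (55.8%, Wilson interval 53.7 to 57.9%), 640 had 1 empty (30.2%) and 298 had none (14.04%). Of footprinted wide sites, 11.9% (11.4 to 12.3%) had both flanking sites empty, and of all sites 39.98%, empty ones included. The share was higher in the empty class on 20 of 20 chromosomes, where it ran from 41.0% on chromosome 19 to 69.5% on chromosome 6. Here the change with footprint number was gradual. Both flanking sites were empty for 30.4% of wide sites with 1 footprint, 18.4% with 2 to 4, 12.1% with 5 to 9 and 6.34% with 10 or more. At 800 to under 1000 bp the shares were 55.7% for empty and 12.7% for footprinted sites. For narrower empty sites it was 61.6%.

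**Figure D4:**
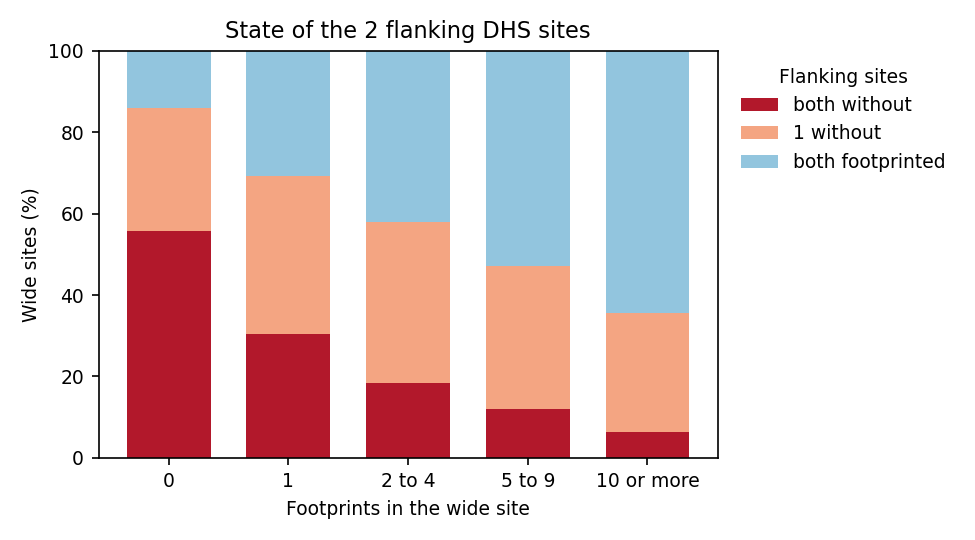
State of the DHS sites on both sides of a wide site (y axis, percent of wide sites) by the number of footprints in the wide site (x axis). Both flanking sites were empty for 55.8% of wide sites without a footprint and for 6.34% of those with 10 or more, with the other classes in between.

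Empty wide sites also followed each other. The next wide site along the chromosome was empty after 754 of 2119 wide empty sites (35.6%, Wilson interval 33.6 to 37.6%), against 5.89% after footprinted ones (5.60 to 6.21%). The share was higher after empty sites on 20 of 20 chromosomes. It stayed higher where the next wide site was 12.5 kb or less away, 27.8% (116 of 417) against 4.20% (269 of 6398). Still, another wide empty site lay within 12.5 kb of only 234 of them (11.0%), and the median distance between nearest wide empty sites was 253 kb.

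In runs of consecutive sites, 1280 wide empty sites (60.3%, Wilson interval 58.2 to 62.4%) belonged to blocks of 5 or more empty sites of any width. Runs of this length were common in the lists as a whole. Of all sites, 60.7% lay in a run of 5 or more sites of their own state, empty or footprinted, as did 59.0% of footprinted wide and 65.0% of narrower empty sites. The share of the wide empty sites was thus near that background. A further 298 (14.04%) stood between footprinted neighbours, also near the 13.9% of all sites that formed a run of their own. Longer runs differed more between the classes. Blocks of 20 or more sites held 673 wide empty sites (31.7%), and more of the narrower empty ones (37.3%). Of footprinted wide sites 13.7% lay in runs of that length of their own state, and of all sites 25.8%. Blocks of 100 or more held 87 wide empty sites (4.10%) and 4.60% of the narrower empty ones. Runs of that length held 0.289% of footprinted wide sites and 2.65% of all sites. There were 26 blocks of 100 or more sites, and 23 of them held a wide site. Such long blocks were mostly of narrow sites. Wide sites made up 2.70% of their 3228 sites, close to the 3.02% among all empty sites. Nor were they sparse, with a median of 58.2 sites per Mb (range 18.9 to 89.8), against 50.05 over the spans of all chromosomes.

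The block with the most wide members was short and rich in them. On chromosome 7, from 109902007 to 110467601, 34 consecutive empty sites over 566 kb included 8 wide ones (23.5%), of 811 to 1141 bp. The other leading blocks were mostly long, with a small share of wide sites. A block on chromosome 15 from 45707876 to 48364646 had 179 sites over 2657 kb, the longest in the lists, with 7 wide sites (3.91%) of 845 to 2073 bp. Blocks with 6 wide sites lay on chromosome 1 from 142685000 to 144925897 (145 sites), on chromosome 4 from 35514589 to 37844267 (113 sites) and on chromosome 6 from 104541717 to 106032177 (123 sites). Another block with 6 lay on chromosome 8 and was shorter, with 63 sites over 855 kb (9.52% wide). The footprinted sites that bounded these 5 named blocks held 1 or 2 footprints each. Outside the chromosome 7 block, over the same length in all, 13 of 40 sites were footprinted (32.5%), and outside the chromosome 15 block 17 of 150 (11.3%).

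**Figure D5:**
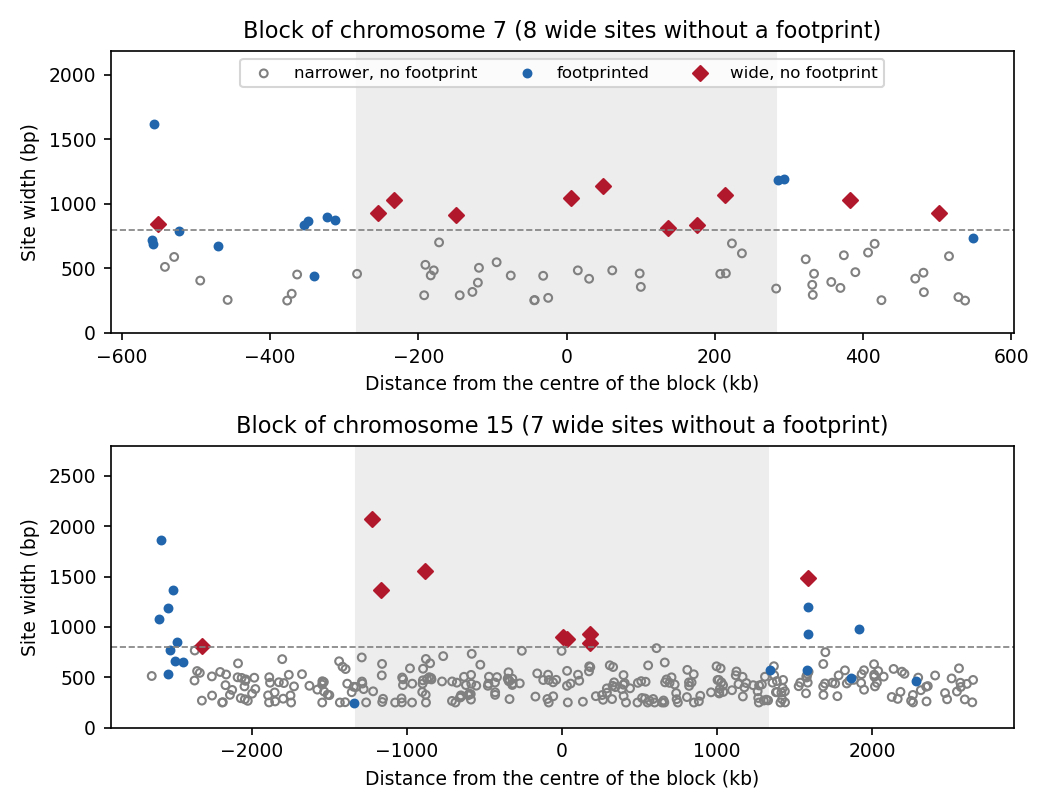
DHS sites in and around the blocks of consecutive empty sites with the most wide members, on chromosome 7 (top) and chromosome 15 (bottom), by distance from the centre of the block (x axis, kb) and width (y axis, bp). Grey shading marks the block and the dashed line 800 bp. The 8 wide empty sites of the first lie among 26 narrower ones, and the 7 of the second among 172.

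By 1 Mb bins, 1247 of the 2408 bins with a wide site held an empty one, and 732 of them held 1. The 214 bins with 3 or more held 789 wide empty sites (37.2%), and 32 bins with 5 or more held 194 (9.14%). Of 1739 bins with at least 5 wide sites, 908 (52.2%) held no wide empty site. In 60 bins (3.45%) at least 50% of the wide sites were empty, and in 7 all were. These 60 bins were on 17 chromosomes, with 9 on X, 7 each on chromosomes 1 and 6, and none on chromosomes 10, 13 and 18. On X they were 9 of the 70 bins with at least 5 wide sites, and on the autosomes 51 of 1669. The 60 bins held 261 wide empty sites, 12.3% of the total. In the median of these bins 87.8% of sites of any width were empty, against 40% in all bins with at least 5 wide sites. The wide sites by which the 60 bins were picked are included in these shares, and narrower sites were not counted apart. The median number of sites was 59.5 in the 60 bins and 52 in all 1739.

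The leading bins differed in how many footprinted sites they also held. The bin starting at 123 Mb on chromosome 6 had 15 wide sites, 10 of them empty, and 96 of its 112 sites were empty. The bin starting at 110 Mb on chromosome 7 also had 10 empty among 15 wide sites, with 63 of 69 sites empty. On chromosome 5, in the bin starting at 57 Mb, all 8 wide sites and 80 of 82 sites were empty. In contrast, the bin starting at 70 Mb on chromosome 6 had 8 empty among 19 wide sites and 122 footprints in 45 other sites. The bin starting at 109 Mb on chromosome 9 was alike, with 8 empty among 21 wide sites and 108 footprints. A further bin with 8, starting at 53 Mb on chromosome 14, had 115 of 121 sites empty.

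Within the same megabase the difference in distance was smaller than over the whole genome. In the 1034 bins that held both classes of wide site, the median distance to the nearest other footprinted site was larger for the empty sites in 576 bins (55.7%) and smaller in 457. The median over bins was 16.6 kb for empty and 8.23 kb for footprinted sites. In these bins 48.2% of 1739 wide empty sites had both flanking sites empty, against 32.7% for the footprinted wide sites of the same bins, averaged with the weights of the empty ones. This comparison was chosen after the values above were seen.

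The surroundings of wide empty sites covered the whole range. For 584 of them (27.5%) under 10% of the other sites within 500 kb were footprinted, for 912 (43.0%) 10 to under 50%, and for 627 (29.5%) 50% or more. Of footprinted wide sites, 80.6% had the last kind of surroundings and 1.07% the first. Among all wide sites, 70.1% were empty in the first kind, 17.7% in the middle kind and 3.24% in the last. Their width hardly differed between these settings, with medians of 934.5, 939.5 and 926 bp. The median distance to a footprinted site was 196.0 kb, 22.3 kb and 4.25 kb in that order.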

How the data were processed

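The authors combined the reads of both DNase samples with earlier reads of the same library before calling sites and footprints, per the labels. Build mm9 and HOMER are named in the submitters' processing notes. HOMER's step and the footprint caller: not given in the sources used here. Only positions are in the deposited site list. The deposited footprint list adds a score in a column named p-value, whose values are all negative and whose scale no source used here gives. It served only to take the stronger 50% of footprints, here those with a finite score at or below the median. That a lower score is stronger was assumed, and the 496 values of -Inf, the lowest, were left out. BED form was assumed, and 27 neighbouring sites overlap by 1 bp in it.

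A footprint was counted in a site at an overlap of 1 bp, and the number of wide empty sites was checked with bedtools. Distances are edge to edge on the same chromosome. Blocks are runs of consecutive empty sites, and bins of 1 Mb were filled by site centre. Chromosome Y held no wide site. The interval of a median is the binomial one from its order statistics. Regions were named by rule: the 10 widest members, the 5 bins and 5 blocks with the most, and the 5 farthest from a footprinted site and 5 nearest to a footprint outside, ties by chromosome and start. Any other region was named after its values were seen. Members, lists and rules were chosen with earlier results of these data known. The functions were tested on simulated data against direct counts. Read depth is unknown. The mm9 sequence and gene annotation were not used here, so no sequence is shown. Python 3.11.15, numpy 2.4.6, pandas 2.3.3, scipy 1.17.1, matplotlib 3.10.9 and bedtools 2.31.1 were used.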

Additional observations from a re-analysis of the deposited data

How the results depend on the processing

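No paired analysis was possible because the DNase values come from a single pooled library and the numbered RNA samples were left out. Of 65 values under alternatives, 41 stayed within their counting interval (counts of bins within 1.5 times) and 24 moved, and no ratio or excess changed direction. With wide sites taken from 700 bp, 10.9% were empty, their median width was 821 bp, and 146 bins had at least 50% of wide sites empty. From 1000 bp these were 4.97%, 1142 bp and 8 bins, 14.5% of wide empty sites were alone, and the excess of X was 9.93 points. With the stronger 50% of footprints, 22.3% of wide sites were empty, with a median width of 955 bp, a median distance of 20601 bp, a distance ratio of 2.20, 197 bins and an excess of X of 18.3 points. Autosomes alone gave 7.99% empty, and leaving out bins with 5 or more members, an alternative chosen after seeing the data, 7.77%. At 800 to under 1000 bp the excess of X was 18.4 points. Counting only footprinted sites of 800 bp or more as near gave a median distance of 102480 bp and a ratio of 6.45. Lone sites were 35.8% at a joining distance of 5000 bp and 7.91% at 20000 bp. Blocks of 3 or more sites held 74.0% and of 10 or more 44.7%. Bins of 500000 bp gave 39 with at least 50% empty. The comparisons with sites of 1 footprint were also chosen after seeing the data. Widening sites by 100 bp changed no value, as no footprint lay that near. This setting thus could not differ, yet it is counted among the 41 and in the tallies that follow. The empty class was farther from footprinted sites in all 8 settings and had more empty flanking pairs in all 7. It was narrower in all 5, and its share of lone sites was the higher in 1 of 9. Read depth is unknown and limits which footprints could be called.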

Other observations

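Some of the widest empty sites had an exact counterpart in width, a feature looked for after the pair of 4041 bp was seen. Those sites on chromosome X start 8.43 kb apart and are both empty. On chromosome 5 a pair of empty sites of 2068 bp, from 95184900 to 95186967 and from 95515074 to 95517141, starts 330.2 kb apart. Of the 19 empty sites of 2000 bp or more, 4 (21.1%, Wilson interval 8.51 to 43.3%) had another site of exactly the same width within 1 Mb, against 8 of 1660 footprinted sites (0.482%, interval 0.244 to 0.948%). These 4 are the X pair and the chromosome 5 pair above, with both sites of each pair counted. They are thus not independent, as the interval assumes, and footprinted sites can be counted from both sides too. Without the X pair, which prompted the search, 2 of 17 remain, both from the chromosome 5 pair. From 1200 bp the counts were 20 of 286 (6.99%) and 128 of 9017 (1.42%). Over all wide sites they were 108 of 2123 (5.09%) and 912 of 23189 (3.93%), but the empty sites were narrower. In each width class from 800 to under 1100 bp the share was lower for empty sites. There it was 28 of 509 against 211 of 2814 at 800 to under 850 bp. At 1000 to under 1100 bp it was 8 of 296 against 123 of 2907. Only in the classes from 1100 bp was the share higher for empty sites. Whether the sequences of such pairs are alike was not tested, as the mm9 sequence was not used here.

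Wide empty sites more often had another DHS site within 200 bp than footprinted wide sites did. Those with 1 footprint were not counted apart at 200 bp, but closeness was not particular to empty sites. The lower quartile of the distance to the nearest site of any kind was 356 bp for wide sites with 1 footprint. For wide empty sites it was 446.5 bp, and the medians were 1.76 and 2.37 kb in that order. The share within 200 bp was also looked for after the 10 widest were seen. Of those 10, 6 had another site within 200 bp. Over all wide empty sites the share was 14.5% (Wilson interval 13.0 to 16.0%), against 11.9% (11.5 to 12.4%) of footprinted wide sites. At 1500 to under 2000 bp it was 26.9% (18 of 67) against 14.5% (429 of 2966), and at 2000 bp or more 36.8% (7 of 19, interval 19.1 to 59.0%) against 19.5% (324 of 1660, interval 17.7 to 21.5%), where the intervals overlap. The 10 widest belong to this last class and give 6 of its 7, which leaves 1 of the other 9.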
